A study of Mus musculus with 15 samples.

Results

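The 6 genes described here encode the enzymes, the co-activator, the phosphodiesterase and the glycerol channel through which a fat cell breaks down stored triglyceride. They are Pnpla2, Lipe, Mgll, Abhd5, Pde3b and Aqp7, chosen by name for their place in this pathway, out of 46603 genes listed in the deposited count tables. Earlier results of these data were known when the choice was made. All 6 of 6 passed the filter on low counts and were among the 15997 genes tested. RNA sequencing was carried out on mouse embryonic fibroblasts (MEFs), cells from the connective tissue of wild-type BALB/c embryos of 10.5 days, which can be driven to become adipocytes in culture. The 15 samples fell into 5 conditions of 3 replicates each. MEFD0 was harvested at day 0, before any treatment. MEFD3plu cells had received insulin (10 µg/mL), dexamethasone (1 µM), rosiglitazone (10 µM) and the phosphodiesterase inhibitor 3-isobutyl-1-methylxanthine (0.5 mM) for 3 days, and MEFD5plu cells were then kept without these agents until day 5. MEFD3min and MEFD5min cells were grown to the same days in DMEM with 10% serum alone, the medium that the MEFD0 cells and the treated cells shared. The strain and embryo age given here are those of the labels. The introduction of the study describes MEFs as taken from another strain and from older embryos. The labels name a single strain and cell type and do not say whether replicates came from separate embryos or cultures, so p-values measure only the spread between these samples.

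In lipolysis, the triglyceride of the lipid droplet is cut in turn by adipose triglyceride lipase (Pnpla2), hormone-sensitive lipase (Lipe) and monoglyceride lipase (Mgll), which release a fatty acid at each step and glycerol at the last. Catecholamines raise cAMP and activate protein kinase A, which acts on Lipe and on the droplet coat, and Abhd5 (also called CGI-58) then activates Pnpla2. Insulin opposes this through Pde3b, which degrades cAMP, while Aqp7 lets glycerol leave the cell.

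Rosiglitazone is a ligand of PPARγ, a nuclear receptor that binds DNA repeats of the 6 letters AGGTCA, so the sequence before the start of the members is shown where it does and does not hold these letters. RefSeq (GRCm38.p6) gave windows of 300 bases, 250 before and 50 from the start, for 5 of the 6 members. AGGTCA or its reverse complement TGACCT was in a window of 2 of these 5, Abhd5 and Aqp7, and in 16.3% of all 32851 windows. Members are counted here as genes with a match in any window, and Lipe, Mgll and Aqp7 had 2 windows each. The percentages are of windows, so the member counts cannot be set directly against them. The first window of Aqp7 and that of Abhd5 are given below with those letters in capitals, 49 and 69 bases before the start, respectively, and that of Pnpla2 as an example without them. Each run is the 250 bases before the start, written 5′ to 3′ on the strand of the gene: chr4:41048137-41048386 (minus strand) for Aqp7, chr9:122351366-122351615 (plus strand) for Abhd5 and chr7:141454938-141455187 (plus strand) for Pnpla2.
Aqp7: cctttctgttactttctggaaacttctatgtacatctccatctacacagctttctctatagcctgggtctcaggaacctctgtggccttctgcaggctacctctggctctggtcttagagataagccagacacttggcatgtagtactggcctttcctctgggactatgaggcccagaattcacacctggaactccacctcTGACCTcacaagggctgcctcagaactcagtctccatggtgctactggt
Abhd5: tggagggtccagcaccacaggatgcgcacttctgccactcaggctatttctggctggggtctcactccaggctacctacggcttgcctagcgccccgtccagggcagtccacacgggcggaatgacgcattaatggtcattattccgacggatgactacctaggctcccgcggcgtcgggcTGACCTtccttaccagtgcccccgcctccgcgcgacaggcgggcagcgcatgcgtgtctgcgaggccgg
Pnpla2: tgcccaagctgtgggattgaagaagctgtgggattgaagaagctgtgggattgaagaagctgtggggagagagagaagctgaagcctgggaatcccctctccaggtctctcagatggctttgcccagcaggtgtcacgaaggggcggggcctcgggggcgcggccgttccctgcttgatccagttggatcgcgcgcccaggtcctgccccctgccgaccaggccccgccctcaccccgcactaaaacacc
The GC box GGGCGG, read on either strand, was in a window of 4 of the 5 members and in 35.7% of all windows. The E-box CACGTG, which reads the same on both strands, was in a window of 2 of the 5 members and in 7.15% of all windows. Here too members are counted as genes and the percentages are of windows. These matches describe letters only, and no binding was measured in these samples.

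The libraries held 24030558 to 37281126 counts. Adipocyte markers matched the label of the treated cells: 7 of the 7 tested (Adipoq, Fabp4, Pparg, Plin1, Cidec, Cfd and Retn) were higher in treated cells on both days, and the eighth, Lep, was at 3 counts or fewer in every library. By the same test, 28.0% of all genes were called higher on day 3 and 26.3% on day 5. The summed level of the adipocyte markers was 3796 to 4997 CPM (counts scaled to library size by TMM, per 1000000) in MEFD3plu and 6330 to 7601 in MEFD5plu. It was 16.3 to 31.8 CPM in the untreated conditions. Every difference between treated and untreated cells below, whether a rise or a fall, thus lay between samples that also differed in this sum. The part of cell numbers in these differences was not tested. Between the treated conditions this sum rose from day 3 to day 5, whereas only some of the 6 genes did. In such bulk samples, fewer cells of a type and less RNA per cell cannot be told apart. Fibroblast markers remained abundant throughout, with a summed level of 10558 to 11685 CPM in MEFD3plu against 18018 to 25582 in MEFD3min. The sum was 8239 to 9282 CPM in MEFD0. On day 5 the treated and untreated ranges overlapped, at 10057 to 11170 CPM in MEFD5plu and 10634 to 11945 in MEFD5min. The macrophage markers Adgre1 and Itgam, the muscle regulators Myod1, Myog and Myf5, and the epithelial markers Epcam, Krt18 and Cdh1 were at 3 counts or fewer in every library. The macrophage markers Ptprc (in MEFD3min and MEFD5min) and Csf1r (in MEFD0, MEFD5min and MEFD5plu) exceeded 3 counts in some library. The other markers of these lists were low but not all at the floor. Des, a muscle filament gene, was at most 0.407 CPM in any untreated library and rose on treatment, 3.98-fold on day 3 (adjusted p = 0.00626) and 13.5-fold on day 5 (adjusted p = 5.27e-05), to 0.942 ± 0.192 CPM (SD, n = 3) in MEFD3plu and 1.96 ± 0.216 CPM in MEFD5plu. Krt8, an epithelial keratin, was lower in MEFD3plu than in MEFD3min (adjusted p = 0.00386) and higher in MEFD5plu than in MEFD5min (adjusted p = 0.00162), where it reached 0.419 to 1.16 CPM. The summed macrophage markers, mostly Cd68 and Lyz2, were at most 6.97 CPM in any library, with Lyz2 lower in treated cells on day 3 (adjusted p = 0.0132) and Cd68 lower on day 5 (adjusted p = 0.000516). The summed endothelial markers were at most 2.23 CPM, with Cdh5 lower in treated cells on both days. The part of these cell types in the results below was not tested.

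All 6 members were higher in treated than in untreated cells, on day 3 and again on day 5. By the quasi-likelihood test of edgeR, with Benjamini-Hochberg adjusted p-values over all genes tested and a threshold of 0.05, 28.0% of all genes were called higher in MEFD3plu than in MEFD3min and 26.3% in MEFD5plu than in MEFD5min. For all 6 members every treated sample lay above every untreated sample of its day, a pattern found in 28.6% of all genes on day 3 and 32.5% on day 5. The median log2 fold change of the 6 was 5.25 on day 3 and 4.22 on day 5, beside -0.00057 and 0.01 over all genes. Because the 6 were chosen with earlier results of these data known, these shares and medians are a description and not a test. The members then parted between day 3 and day 5: Pnpla2, Lipe and Pde3b fell in treated cells, Mgll and Aqp7 rose further, and the difference for Abhd5 did not pass the test.

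**Figure D1:**
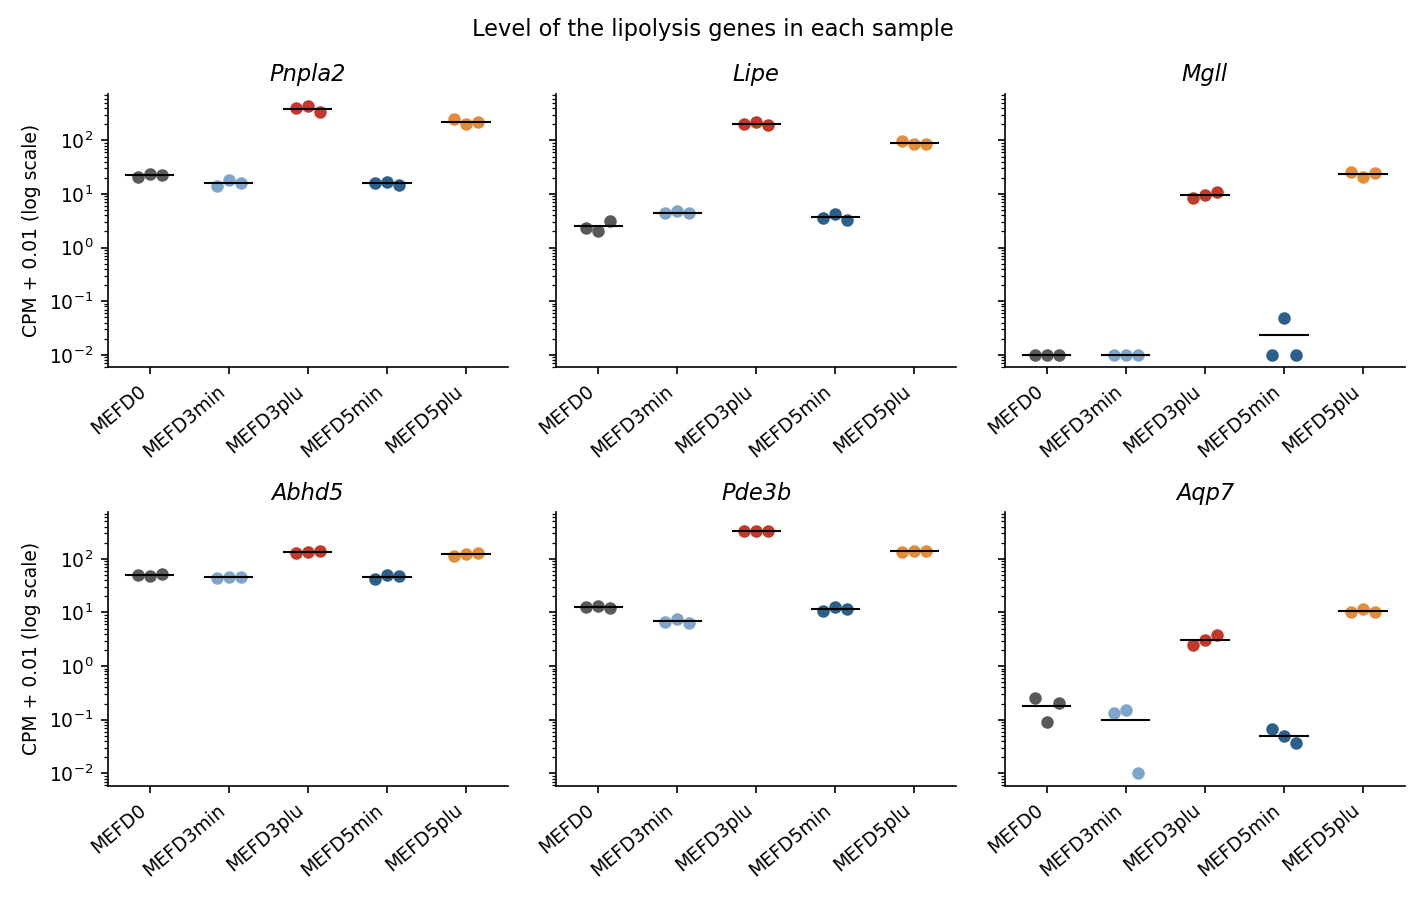
Level of each gene in each of the 15 samples as TMM-scaled CPM plus 0.01 on a log scale, with the condition on the horizontal axis, points for samples and bars for the mean of 3. Pnpla2, Lipe and Pde3b are highest in MEFD3plu, Mgll and Aqp7 in MEFD5plu, and Abhd5 is the gene with the highest untreated level.

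Pnpla2 (ENSMUSG00000025509, chromosome 7, 141455198 to 141460743, plus strand, GRCm38) makes the lipase that takes the first fatty acid from triglyceride. Its level was 14.2, 18.4 and 16.0 CPM in MEFD3min and 396, 439 and 341 CPM in MEFD3plu. On day 5 it was 16.0, 17.1 and 14.9 CPM in MEFD5min and 246, 203 and 223 CPM in MEFD5plu. The treated samples of each day were far above the untreated ones and the 2 treated conditions did not overlap either. The log2 fold change was 4.60 ± 0.111 (SE) on day 3 (adjusted p = 1.78e-14) and 3.81 ± 0.112 on day 5 (adjusted p = 1.61e-13). Within treated cells, Pnpla2 fell by 0.81 on the log2 scale from day 3 to day 5 (SE 0.107, adjusted p = 5.72e-06). MEFD0 held 20.4, 23.4 and 22.9 CPM, above all samples of the later untreated conditions, and Pnpla2 fell by 0.46 from MEFD0 to MEFD3min (adjusted p = 0.0023) and by 0.48 to MEFD5min (adjusted p = 0.00243). In order of mean level, MEFD5min and MEFD3min did not differ beyond their spread (log2 difference -0.02, 95% interval -0.27 to 0.22), followed upward by MEFD0, MEFD5plu and MEFD3plu.

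Abhd5 (ENSMUSG00000032540, chromosome 9, 122351608 to 122381524, plus strand) makes the co-activator of Pnpla2. It was the member with the highest level in untreated cells and the smallest fold change. Its level was 49.9, 48.8 and 53.3 CPM in MEFD0, 44.4, 45.1 and 46.3 in MEFD3min, and 42.7, 49.1 and 48.3 in MEFD5min. Treated cells held 128, 135 and 142 CPM in MEFD3plu and 114, 125 and 126 CPM in MEFD5plu. MEFD5min overlapped both other untreated conditions, MEFD3min lay wholly below MEFD0 without passing the test (adjusted p = 0.0791), and all 6 treated samples lay above the untreated ones. The log2 fold change was 1.57 ± 0.0760 (SE) on day 3 (adjusted p = 1.96e-11) and 1.38 ± 0.0760 on day 5 (adjusted p = 2.75e-10). The difference between MEFD5plu and MEFD3plu did not pass (log2 -0.15, 95% interval -0.31 to 0.01, adjusted p = 0.0925), although the 3 samples of each did not overlap. That call turned with the scaling and the tool: the adjusted p was 0.0376 in edgeR with size factors from DESeq2, 0.0113 when scaled by library totals only and 0.019 in DESeq2 itself. In order of mean level the neighbours MEFD3min, MEFD5min and MEFD0 did not differ beyond their spread.

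The balance of co-activator to lipase differed between treated and untreated conditions. On the scale of CPM per kb of exon, which allows levels of different genes to be compared, the level of Abhd5 was 1.16 ± 0.0929 (SD, n = 3) times that of Pnpla2 in MEFD0, 1.43 ± 0.175 in MEFD3min and 1.48 ± 0.144 in MEFD5min. It was 0.177 ± 0.0293 in MEFD3plu and 0.277 ± 0.0390 in MEFD5plu. The lowest ratio in an untreated sample was 1.06 and the highest in a treated one 0.311. With the longest transcript as the length the ratios were larger, 1.90 in MEFD0 and 0.289 in MEFD3plu, and lay on the same side of 1. A730085K08Rik lies antisense to 16.0% of the exon bases of Abhd5, and it held at most 24 counts in any library.

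Lipe (ENSMUSG00000003123, chromosome 7, 25379527 to 25398710, minus strand) makes the lipase that acts mainly on diglyceride. Its level was 4.36, 4.80 and 4.34 CPM in MEFD3min and 203, 216 and 193 CPM in MEFD3plu. On day 5 it was 3.49, 4.24 and 3.22 CPM in MEFD5min and 96.1, 87.2 and 87.2 CPM in MEFD5plu. No treated sample overlapped an untreated one, and MEFD5plu lay wholly below MEFD3plu. The log2 fold change was 5.50 ± 0.117 (SE) on day 3 (adjusted p = 3.13e-15) and 4.64 ± 0.121 on day 5 (adjusted p = 2.35e-14). From MEFD3plu to MEFD5plu, Lipe fell by 1.18 on the log2 scale (SE 0.101, adjusted p = 4.23e-08). Unlike Pnpla2, its lowest level was at day 0, with 2.30, 2.04 and 3.07 CPM. It rose by 0.86 from MEFD0 to MEFD3min (SE 0.141, adjusted p = 4.33e-05) and by 0.55 to MEFD5min (SE 0.144, adjusted p = 0.00472). The neighbours MEFD5min and MEFD3min did not differ past the threshold (log2 -0.32, 95% interval -0.60 to -0.03, adjusted p = 0.0681). Without MEFD5min replicate 3, that difference passed (adjusted p = 0.0261). Per kb of exon, the level of Lipe was 0.269 ± 0.0195 (SD, n = 3) times that of Pnpla2 in MEFD3plu and 0.207 ± 0.0112 in MEFD5plu. The antisense gene 4732471J01Rik covers 15.6% of the exon bases of Lipe and held at most 9 counts in any library.

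Mgll (ENSMUSG00000033174, chromosome 6, 88724412 to 88828360, plus strand) makes the lipase that splits monoglyceride into glycerol and the last fatty acid. No count was assigned to it in any of the 3 MEFD0 or 3 MEFD3min libraries, and MEFD5min held 0, 1 and 0 counts. MEFD3plu held 251, 302 and 382 counts, or 8.56, 9.46 and 10.8 CPM, and MEFD5plu held 858, 655 and 819 counts, or 25.6, 21.1 and 24.7 CPM. Mgll was detected in every treated library and at or near 0 counts in the untreated ones. Against a floor of 3 counts in each library, which a count of 0 allows, MEFD3plu was at least 103-fold higher than MEFD3min (adjusted p = 1.25e-10). On day 5 the ratio of summed counts per library size was 2349 (95% counting interval 421 to 92817, adjusted p = 4.02e-11). The interval is wide because a single read was counted in MEFD5min, and like the floor it covers counting error only. From MEFD3plu to MEFD5plu, Mgll rose by 1.31 on the log2 scale (SE 0.151, 95% interval 0.98 to 1.63, adjusted p = 7.36e-06), with no overlap. Per kb of exon, its level was 0.0548 ± 0.00862 (SD, n = 3) times that of Lipe in MEFD3plu and 0.306 ± 0.0239 in MEFD5plu. The 3 untreated conditions could not be ordered, since all were at the floor, and Gm26588, antisense to 3.29% of its exon bases, held at most 7 counts.

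Pde3b (ENSMUSG00000030671, chromosome 7, 114415281 to 114539251, plus strand) makes the phosphodiesterase through which insulin lowers cAMP. Its level was 6.64, 7.44 and 6.42 CPM in MEFD3min and 332, 333 and 337 CPM in MEFD3plu. On day 5 it was 10.6, 12.7 and 11.6 CPM in MEFD5min and 132, 139 and 143 CPM in MEFD5plu. The conditions lay apart on each day, and the 3 MEFD3plu samples were the closest to each other of any member in treated cells. The log2 fold change was 5.61 ± 0.0833 (SE) on day 3 (adjusted p = 1.21e-16) and 3.57 ± 0.0803 on day 5 (adjusted p = 7.32e-15). From MEFD3plu to MEFD5plu, Pde3b fell by 1.27 on the log2 scale (adjusted p = 4.31e-10). The untreated level also differed between days: Pde3b fell by 0.90 from MEFD0 (12.8, 13.3 and 12.2 CPM) to MEFD3min (adjusted p = 1.15e-07) and was higher by 0.76 in MEFD5min than in MEFD3min (adjusted p = 2.4e-06). The neighbours MEFD5min and MEFD0 did not differ past the threshold (adjusted p = 0.203).

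Aqp7 (ENSMUSG00000028427, chromosome 4, 41033074 to 41048139, minus strand) makes the channel through which glycerol leaves adipocytes. Counts were 7, 3 and 7 in MEFD0, 4, 5 and 0 in MEFD3min and 2, 1 and 1 in MEFD5min, so its untreated level rested on very few reads. They were 73, 96 and 132 in MEFD3plu (2.49, 3.01 and 3.72 CPM) and 336, 359 and 341 in MEFD5plu (10.0, 11.6 and 10.3 CPM). All treated samples lay above all untreated samples. The log2 fold change on day 3 was 5.01 ± 0.547 (SE, adjusted p = 1.03e-08). On day 5 the ratio of summed counts per library size was 261 (95% counting interval 102 to 959, adjusted p = 1.31e-10). From MEFD3plu to MEFD5plu, Aqp7 rose by 1.78 on the log2 scale (SE 0.235, adjusted p = 6.22e-06), the largest rise among the members. In order of mean level, the neighbours MEFD5min and MEFD3min (adjusted p = 0.302) and MEFD3min and MEFD0 (adjusted p = 0.262) did not differ beyond their spread.

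**Figure D2:**
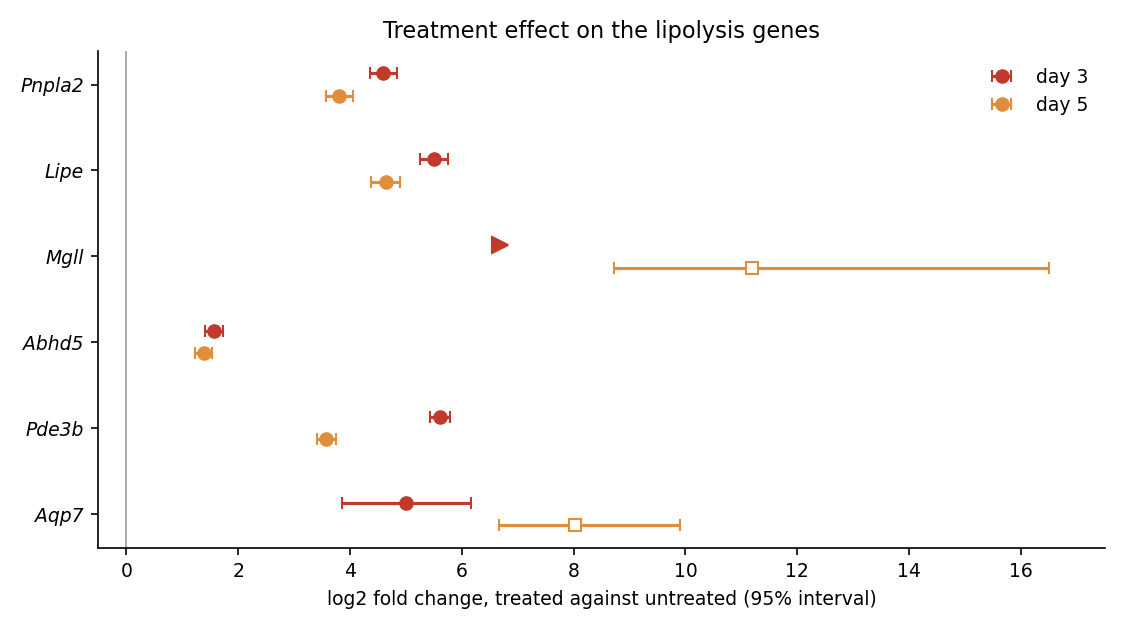
Log2 fold change of treated against untreated cells for each gene on day 3 (red) and day 5 (orange), with bars for 95% intervals. Filled circles are fitted values, open squares are ratios of summed counts with counting intervals, and the triangle is a lower bound; Abhd5 has the smallest change (1.57 and 1.38), and Pnpla2, Lipe and Pde3b change more on day 3 than on day 5.

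Whether the treatment effect differed between days was tested as an interaction, the log2 fold change on day 3 minus that on day 5. It passed for 4 of the 6 members, beside 48.5% of all genes. Among the members whose effect was larger on day 3, it was largest for Pde3b, at 2.04 ± 0.116 (SE, adjusted p = 5.23e-10). Lipe (0.86 ± 0.168, adjusted p = 0.00046) and Pnpla2 (0.79 ± 0.158, adjusted p = 0.000573) also had the larger effect on day 3. Aqp7 had the larger effect on day 5 (-2.89, adjusted p = 0.0122), with MEFD5min at the floor. Leaving out MEFD3min replicate 1 (adjusted p = 0.057) or replicate 3 (adjusted p = 0.083) took the call for Aqp7 away. The interaction of Abhd5 did not pass (0.19, 95% interval -0.03 to 0.42, adjusted p = 0.149), and with total counts alone it did (0.38, adjusted p = 0.00645), a scaling that moved the median of all genes in this contrast from -0.03 to 0.15. For Mgll the interaction gave no usable size, since untreated cells were at the floor on both days.

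In treated cells alone, 5 of the 6 members differed between day 5 and day 3, where 63.0% of all genes were called. The 3 that fell (Pnpla2, Lipe and Pde3b) stand beside 29.2% of all genes called lower, and the 2 that rose (Mgll and Aqp7) beside 33.8% called higher. Of the 7 adipocyte markers tested over this interval, 5 were higher and 1 was lower, with a median log2 change of 0.56. Among untreated conditions, 3 of 6 members were called between MEFD3min and MEFD0 (Lipe higher, Pnpla2 and Pde3b lower), where 60.0% of all genes were. Another 3 were called between MEFD5min and MEFD0 (Lipe higher, Pnpla2 and Aqp7 lower), beside 46.4% of all genes. The call for Aqp7 there rested on 4 counts in MEFD5min, and it was lost when MEFD0 replicate 1 or 4 or any 1 of the 3 MEFD5min replicates was left out (adjusted p from 0.0628 to 0.122). Only Pde3b was called between MEFD5min and MEFD3min, beside 42.8% of all genes. Further pairs served to order neighbouring conditions: every neighbour pair of an untreated and a treated condition passed. These pairs called 65.0% of all genes for MEFD5plu against MEFD0, 63.5% for MEFD3plu against MEFD0, 62.7% for MEFD5min against MEFD3plu and 56.7% for MEFD5plu against MEFD3min.

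Most genes of the lipid droplet coat, which Pnpla2 and Lipe must reach, and of lipase inhibitors rose with the lipases on treatment. They then took different courses. Of 9 genes in this list, 7 rose and 1 fell on day 3, and 7 rose and none fell on day 5. Beside these, 28.0% of all genes were called higher on day 3 and 26.3% on day 5, and 8967 and 8080 of 15997 in either direction. Hilpda passed on neither day (0.08, adjusted p = 0.714 on day 3, and -0.33, adjusted p = 0.096 on day 5). Plin1, the perilipin that holds Abhd5 on the droplet of resting adipocytes, stood at 158 to 177 CPM in MEFD3plu against 2 or fewer counts in each MEFD3min library, a ratio of 8166 (95% counting interval 2260 to 67439). G0s2, an inhibitor of Pnpla2, had a log2 fold change of 11.10 ± 0.683 (SE) on day 3 (adjusted p = 1.22e-14) and 9.29 ± 0.403 on day 5 (adjusted p = 2.35e-14). The size of these changes rests on few reads in untreated cells. Per kb of exon, G0s2 was 0.0164 ± 0.0173 (SD, n = 3) times Pnpla2 in MEFD3min and 0.0490 ± 0.0194 in MEFD5min. Cidec, which promotes droplet fusion, rose by 10.64 on day 3 (SE 0.488, adjusted p = 1.34e-13) and had a ratio of summed counts of 29317 on day 5 (95% counting interval 11450 to 107602). Plin3, a coat protein found in many cell types, fell by 0.35 on day 3 (adjusted p = 0.000897).

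Per kb of exon, the level of G0s2 was 1.50 ± 0.323 (SD, n = 3) times that of Pnpla2, the lipase it inhibits, in MEFD3plu, with a highest sample of 1.84, and 2.22 ± 0.440 in MEFD5plu, with a lowest of 1.82, so the 2 conditions overlapped. In the 3 untreated conditions the highest ratio of any sample was 0.0691. Its own change from MEFD3plu to MEFD5plu did not pass (-0.23, adjusted p = 0.17). From MEFD3plu to MEFD5plu, 5 of the 9 coat and inhibitor genes were called higher and 1 lower, beside 33.8% and 29.2% of all genes. Plin1 was the only 1 called lower, by 0.84 (adjusted p = 0.000109), beside the fall of Pnpla2 by 0.81. Cidec was among those that rose, by 1.31 (adjusted p = 2.67e-05). Hilpda also rose, by 1.24 (adjusted p = 4.92e-06), and in untreated cells it rose by 1.65 from MEFD3min to MEFD5min (adjusted p = 4.21e-07).

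**Figure D3:**
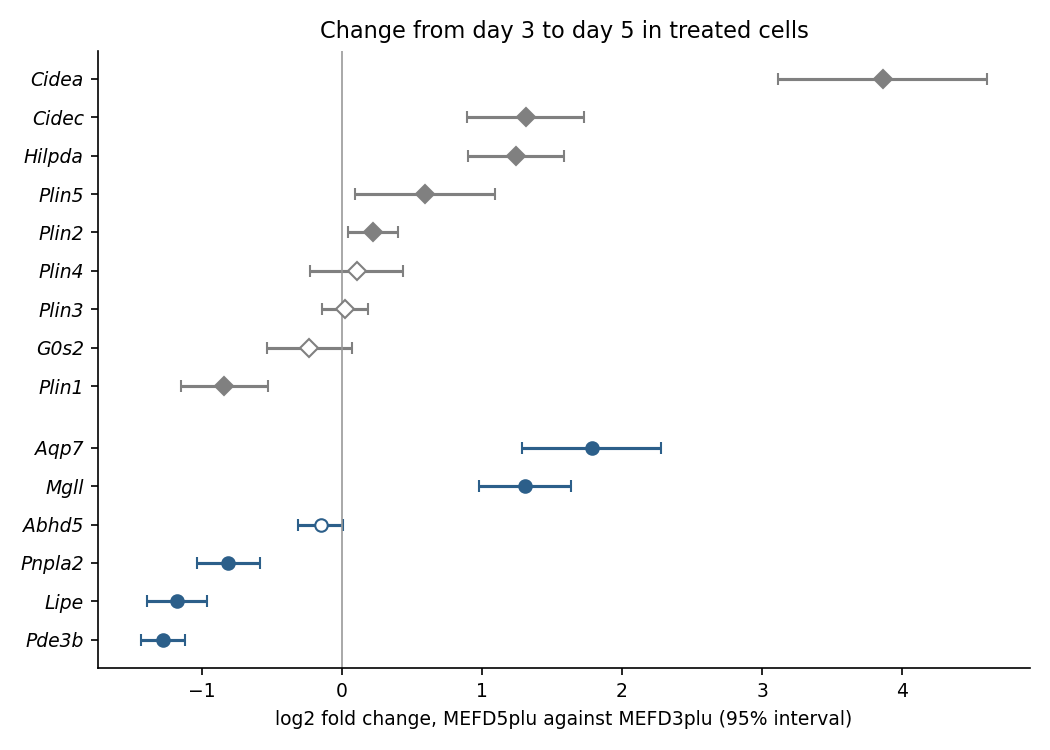
Log2 fold change of MEFD5plu against MEFD3plu with 95% intervals for the 6 lipolysis genes (circles) and 9 droplet coat and lipase inhibitor genes (diamonds), filled where the adjusted p is under 0.05. Aqp7 (1.78) and Mgll (1.31) lie right of 0, Abhd5 (-0.15) is open, and Pnpla2, Lipe and Pde3b lie left of 0, as does Plin1 (-0.84). Of the 9 coat and inhibitor genes, 5 were called higher and only Plin1 was called lower.

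Pde3b is 1 of 13 cAMP phosphodiesterase genes examined, and the others moved in both directions. Of the 11 others tested, 4 rose and 5 fell on day 3, and 3 rose and 2 fell on day 5. Their median log2 fold change was -0.31 and 0.10, beside -0.00057 and 0.01 over all genes. Across all genes, 28.0% were called higher on day 3 and 26.3% on day 5. In both directions together, 8967 and 8080 of 15997 genes were called on these days. Pde1c (4.48 ± 0.441, SE) and Pde4d (2.76 ± 0.164) rose most on day 3, and Pde1b (-2.39 ± 0.316) and Pde4a (-1.10 ± 0.181) fell most. On day 5, Pde1c (2.78) and Pde4b (0.63) were the largest increases and Pde3a (-1.39), the closest relative of Pde3b, and Pde4a (-0.53) the decreases. Pde3a went the other way on day 3, when it was higher by 1.16 in treated cells (adjusted p = 2.52e-06).

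In terms of share, Pde3b made up 8.73% ± 0.0698 (SD, n = 3) of the summed CPM per kb of the 13 genes in MEFD0, 1.92% ± 0.116 in MEFD3min and 3.97% ± 0.978 in MEFD5min. The share was 51.0% ± 0.801 in MEFD3plu and 32.1% ± 1.19 in MEFD5plu, and no treated sample overlapped an untreated one. The summed level itself was 71.9 CPM per kb in MEFD3plu against 39.1 in MEFD3min, and 47.2 in MEFD5plu against 33.0 in MEFD5min. Pde1a had the largest share in MEFD5min (28.7%, and 25.2% with the longest transcript as the length). With that length, the share of Pde3b was 44.3% in MEFD3plu and 27.8% in MEFD5plu.

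**Figure D4:**
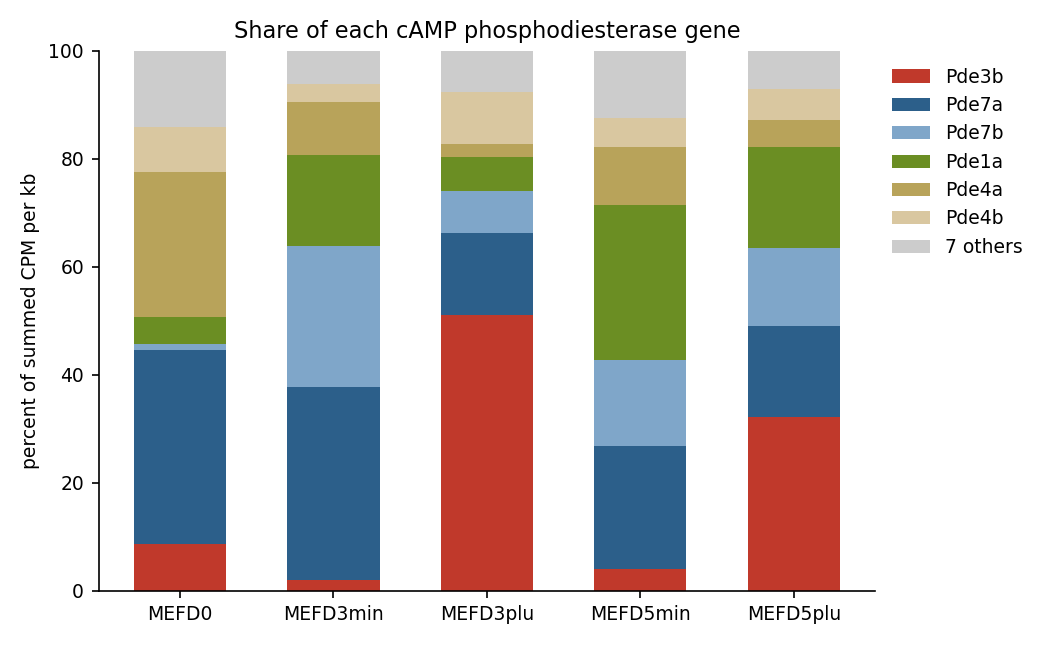
Mean share of each cAMP phosphodiesterase gene in the summed CPM per kb of 13 genes, in percent, for the 5 conditions. Pde3b (red) takes 51.0% in MEFD3plu and 32.1% in MEFD5plu against 1.92% to 8.73% in the untreated conditions.

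Several of the receptors that start or restrain lipolysis were low in count in untreated cells. Npr3 was at the floor of 3 counts in no condition. Of 10 receptors tested, 5 rose and 3 fell on each day, beside 28.0% of all genes called higher on day 3 and 26.3% on day 5. With falls included, 8967 of 15997 genes were called on day 3 and 8080 on day 5. Adrb3, the β3-adrenergic receptor of adipocytes, was at 3 counts or fewer in every untreated library, and its level was 1.07 ± 0.434 CPM (SD, n = 3) in MEFD3plu and 4.98 ± 1.19 CPM in MEFD5plu (log2 change 2.21 between the days, adjusted p = 3.28e-05). Hcar1, a lactate receptor that restrains lipolysis, had no count in any untreated library and was at least 7.88-fold higher in MEFD3plu than in MEFD3min and at least 23.6-fold higher in MEFD5plu than in MEFD5min, against 3 counts in each library. Adora1, the adenosine receptor with the same role, was at least 4.87-fold and 3.38-fold higher on day 3 and day 5. Npr3, the clearance receptor for natriuretic peptides, fell on day 3 (-1.56 ± 0.159, SE) and day 5 (-2.31 ± 0.145), and so did Ptger3, a prostaglandin receptor (-1.67 ± 0.630 and -1.69 ± 0.568).

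Downstream of the receptors, fold changes on day 3 ran from -2.63 to 0.91 on the log2 scale among the genes that passed. Of 14 genes for G proteins, adenylyl cyclases and protein kinase A tested, 5 rose and 6 fell on day 3, and 3 rose and 2 fell on day 5. Over all genes, 28.0% were called higher on day 3 and 26.3% on day 5. In either direction, 8967 of 15997 genes were called on day 3 and 8080 on day 5. Prkar2b, the regulatory subunit abundant in fat, rose by 0.91 on day 3 (SE 0.0703) and by 0.91 on day 5 (SE 0.0704). Prkaca, a catalytic subunit, rose by 0.88 on day 3 and Prkacb, another, by 0.40 on day 5. Among the cyclases, Adcy4 fell by 2.63 and Adcy7 by 1.74 on day 3, and on day 5 Adcy7 fell by 0.73 and the regulatory subunit Prkar2a by 0.72.

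The insulin arm upstream of Pde3b had 3 of 8 genes higher and 2 lower on day 3, and 2 higher and 3 lower on day 5. These numbers stand beside 28.0% of all genes called higher on day 3 and 26.3% on day 5. Calls in either direction were 8967 of 15997 genes on day 3 and 8080 on day 5. Pik3r1, a regulatory subunit of phosphoinositide 3-kinase, rose by 1.09 and 1.06, and Pik3cb, a catalytic one, fell by 1.70 and 1.94 on the 2 days. The kinases changed little, with Pdpk1 higher by 0.41 and Akt1 lower by 0.33 on day 3, and Akt2 higher by 0.20 and the insulin receptor substrate Irs1 lower by 0.52 on day 5.

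Of 5 other genes of glycerol transport and glycerol phosphate tested, 2 rose and 2 fell on day 3, and 3 rose and 1 fell on day 5. Between MEFD3plu and MEFD5plu, 5 of 5 rose, where 33.8% of all genes were called higher. Gpd1, which makes glycerol phosphate for new triglyceride, rose by 9.92 on day 3 (SE 0.468, adjusted p = 8.74e-14) and by a further 1.23 from MEFD3plu to MEFD5plu (adjusted p = 1.45e-05). Gk, glycerol kinase, rose by 1.87 on day 3 and 1.26 on day 5. Aqp3, another glycerol channel, went opposite to Aqp7 on day 3 and was 28.6-fold lower in MEFD3plu by summed counts (95% counting interval 12.0 to 89.5). Gpd2, the mitochondrial enzyme, fell by 0.53 and 0.61. Among 11 other lipases and acylglycerol hydrolases tested, 6 rose and 2 fell on day 3, and 7 rose and 1 fell on day 5. Lpl, which releases fatty acids from circulating lipoproteins, rose by 6.85 and 7.36, and Ces1d, a triglyceride hydrolase of adipocytes, was at least 3.60-fold higher on day 3 and had a ratio of summed counts of 159 on day 5 (95% counting interval 28.2 to 6325). The lysosomal lipase Lipa fell by 0.54 on day 3 and Abhd4 by 0.25, while Dagla, a diglyceride lipase, fell by 1.01 on day 5.

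The genes most like each member over the 15 samples were sought among 9586 genes whose mean log2 CPM was 3 or more, by the root mean square difference between centred log2 CPM, as a description with no test. Pnpla2 and Pde3b were each other's nearest, at 0.361. The next for Pnpla2 was Gpat3 (0.399), an acyltransferase of triglyceride synthesis, and for Pde3b it was Pcx, pyruvate carboxylase (0.564). Lipe lay nearest to Cebpa (0.349), a transcription factor of adipocyte differentiation, whose mean level was 1.67 CPM in MEFD0, 126 CPM in MEFD3plu and 57.9 CPM in MEFD5plu, and then to Pcx (0.487). Abhd5 lay close to Dld (0.131), the mitochondrial enzyme dihydrolipoamide dehydrogenase, whose mean level was 127 CPM in MEFD3min, 365 CPM in MEFD3plu and 370 CPM in MEFD5plu. Mgll lay nearest to Lpl (0.644) and Fabp4 (0.672), and Aqp7 to Agpat2 (0.855) and Acsl1 (0.993), so the matches of these rarer members were looser. With a prior count of 0.5 in place of 2, the same genes were named for each member, but for Mgll and Aqp7 the order within the pair turned, with Mgll at 0.735 from Fabp4 and 1.47 from Lpl.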

How the data were processed

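RNA was sequenced from 15 MEF samples in 5 conditions, with groups and replicate numbers (1, 3 and 4) taken from the sample titles. The authors deposited raw counts of reads per Ensembl gene, 1 table per sample, with no normalization. The submitters' processing notes name TopHat2 2.1.0, HTSeq, DESeq2 and GRCm38 without roles. The labels name an unstranded TruSeq kit and the study's methods a stranded one, and the strand setting and annotation release are not given in the sources used here; without strand, reads of a gene and its antisense partner cannot be told apart. Gene names came from GENCODE M21 (46091 of 46603 matched).

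Counts were filtered with filterByExpr, scaled by TMM and fitted in edgeR 4.0.16 (R 4.3.3) with 1 mean per condition over all 15 samples (glmQLFit, glmQLFTest), with Benjamini-Hochberg adjustment over the 15997 genes tested within each comparison. Standard errors came from the fitted information. A condition with at most 3 counts in every library was taken as at the floor: where all its libraries held 0 a lower bound is given, and otherwise the ratio of summed counts with an exact 95% interval. CPM was divided by the union of exons for levels per kb. The code was tested on simulated data with known changes. The members and lists were chosen with earlier results of these data known. Named beyond the 6 members were, per list and day, the 2 largest increases and decreases among called genes, and the 2 genes most like each member (for Abhd5, 1 of the 2 is not reported here); Pde3a on day 3, the day 5 to day 3 changes and the levels of named genes were added after their values were seen.

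Same-numbered samples deviated together on day 3 (correlations 0.143, 0.228 and 0.360 between MEFD3plu and MEFD3min), but not on day 5 (0.0422, -0.00453 and 0.0538). The replicate block changed no member's call on either day. Alternatives were DESeq2 1.42.0, its size factors, total counts alone, other filters, a threshold of 0.01, only the samples compared, the replicate block, the longest transcript, a prior count of 0.5 and leaving out each replicate. Total counts per library, 24030558 to 37281126, limit the precision of Mgll and Aqp7 in untreated cells.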

Additional observations from a re-analysis of the deposited data

Results flagged for a closer look

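The treatment effect on day 3 minus that on day 5 (log2, edgeR interaction test) passed at an adjusted p under 0.05 for 4 members: Pnpla2 (0.79), Lipe (0.86), Pde3b (2.04) and Aqp7 (-2.89, with MEFD5min at the floor). Of the named pathway genes, the effect was larger on day 3, or less negative, for Pde3a (2.55), Pde4d (2.30), G0s2 (1.81), Pde4b (1.78), Pde1c (1.71), Dagla (1.48), Prkar2a (1.44), Npr3 (0.76), Gk (0.61), Prkaca (0.59) and Pdpk1 (0.55). It was larger on day 5, or less negative, for Cidec (-4.07), Aqp3 (-4.02), Gpd1 (-3.48), Adcy4 (-2.30), Pde1b (-1.95), Lipa (-1.14), Adcy7 (-1.01), Prkacb (-0.73), Lpl (-0.50) and Plin3 (-0.49). Those of Cidec, Gpd1 and Aqp3 involve a condition at the floor, so their size depends on the prior count. G0s2 was near the floor in untreated cells, and its interaction passed narrowly (adjusted p = 0.0457). Pde3a, Dagla, Prkar2a, Lipa and Prkacb passed with opposite directions on the 2 days. No cause was tested for any of these differences.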

How the results depend on the processing

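All 6 members were called higher in treated cells on both days under every alternative that tested them (4 of 4 with at least 10 counts in every sample), and 529 of the recomputed values kept direction and side of the threshold. Other counts of members changed as follows. Between MEFD5min and MEFD3min, 2 members were called in place of 1 with no filter on low counts (Lipe, adjusted p = 0.0441), and 1 to 2 when each replicate was left out. Between MEFD5plu and MEFD3plu, 3 were called with at least 10 counts in every sample, since that filter leaves Mgll and Aqp7 untested. Pnpla2 between MEFD5min and MEFD3min, not called in any setting, changed sign to 0.082 with total counts alone, and ranged from -0.11 to 0.080 without each replicate. With the replicate block, 9452 genes were called on day 3 in place of 8967 and 8607 in place of 8080 on day 5, and among members only Abhd5 changed, between MEFD3min and MEFD0 (adjusted p = 0.0483 in place of 0.0791). Total counts alone moved the median of all genes on day 5 to -0.15 and the share of higher calls from 52.1% to 37.0%; the cause was not tested. With the longest transcript as the length, levels in CPM per kb moved in MEFD3plu to 149 for Pnpla2, 55.0 for Lipe, 2.40 for Mgll, 42.7 for Abhd5 and 50.8 for Pde3b, and in MEFD5plu to 85.3, 24.3, 5.96, 38.5 and 21.01 for the same genes and 4.203 for Aqp7. Depth limits Aqp7 and Mgll in untreated cells, where no library held more than 7 counts of Aqp7 or more than 1 of Mgll.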
